A study of Mus musculus with 24 samples.

Results

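The genes described here are 39 genes whose products build or fuel the adult skeletal muscle fibre. They belong to the thin filament, the thick filament, the Z disc, calcium handling, and energy and gas metabolism. They were taken from a list of gene names, and the brightest of a gene's probes over 24 arrays stood for it. A probe was named for 36 of the 39 genes, out of 16593 genes with a probe, and 20 of these passed the detection filter, out of 7568 genes. Their RNA was measured not in muscle fibres but in FAPs (fibro/adipogenic progenitors), stromal cells of mesenchymal origin that lie between the fibres. The FAPs were sorted fresh from pooled quadriceps, gastrocnemius and tibialis anterior of male mice, all wild type and of the C57BL/6J strain. Old activated FAPs came from mice of 20 to 24 months, 3 days after 50 µl of 50% glycerol had been injected into the muscles, and old quiescent FAPs from uninjured muscle of mice of that age. Young activated FAPs, taken 3 days after the same injection, and young quiescent FAPs, from uninjured muscle, came from mice of 2 to 4 months. There were 6 arrays in each group, biological replicates by the labels. The gate of the sort is not given in the sources used here.

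Muscle shortens when myosin of the thick filament pulls on actin of the thin filament, and the Z disc anchors the thin filaments on either side. Calcium that leaves the sarcoplasmic reticulum through the ryanodine receptor binds troponin C and frees the thin filament for myosin, and a calcium pump then returns it to the store. Fast-twitch and slow-twitch fibres use different isoforms of the troponins, the myosins and the calcium-handling proteins. FAPs build no sarcomeres, and in muscle they are known as a source of matrix and of fat cells and as support for myogenic cells after injury.

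Promoter windows are shown for 5 fibre genes on which the results turn. Acta1, Atp2a1 and Pgam2 were lower in activated FAPs at both ages, Myl3 had the largest fitted change in young mice, and Eno3 moved the other way. Each window runs from 250 bases before to 50 bases after the start of the gene, 5′ to 3′ on the gene's strand, from RefSeq on GRCm38.p6. Capitals mark the motifs found on either strand, and no motif overlapped another in these windows. They are the E-box (CANNTG), which myogenic factors of the MyoD family bind, the MEF2 site, the CArG box, which serum response factor binds, and the TATA box (TATAAA). The windows lie at chr8:123894726-123895025 (minus strand) for Acta1, chr7:126463024-126463323 (minus strand) for Atp2a1, and chr11:5803747-5804046 (minus strand) for Pgam2. Those of Myl3 and Eno3 lie on the plus strand, at chr9:110763428-110763727 and chr11:70656926-70657225.
Acta1: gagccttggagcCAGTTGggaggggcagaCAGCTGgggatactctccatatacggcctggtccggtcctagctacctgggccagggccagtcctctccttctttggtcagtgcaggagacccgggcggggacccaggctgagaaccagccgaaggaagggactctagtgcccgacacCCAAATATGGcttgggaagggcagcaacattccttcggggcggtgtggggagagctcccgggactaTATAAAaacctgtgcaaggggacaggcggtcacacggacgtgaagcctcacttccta
Atp2a1: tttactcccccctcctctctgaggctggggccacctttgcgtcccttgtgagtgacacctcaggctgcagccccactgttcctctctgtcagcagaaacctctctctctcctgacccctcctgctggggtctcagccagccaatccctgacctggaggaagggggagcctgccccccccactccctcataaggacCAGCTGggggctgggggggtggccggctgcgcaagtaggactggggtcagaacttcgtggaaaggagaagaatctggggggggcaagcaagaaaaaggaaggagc
Pgam2: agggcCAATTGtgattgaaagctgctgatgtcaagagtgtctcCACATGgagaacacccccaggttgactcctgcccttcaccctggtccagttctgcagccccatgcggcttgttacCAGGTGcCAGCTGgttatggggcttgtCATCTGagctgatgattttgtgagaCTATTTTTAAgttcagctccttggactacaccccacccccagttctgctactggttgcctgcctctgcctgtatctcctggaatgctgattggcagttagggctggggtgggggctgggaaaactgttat
Myl3: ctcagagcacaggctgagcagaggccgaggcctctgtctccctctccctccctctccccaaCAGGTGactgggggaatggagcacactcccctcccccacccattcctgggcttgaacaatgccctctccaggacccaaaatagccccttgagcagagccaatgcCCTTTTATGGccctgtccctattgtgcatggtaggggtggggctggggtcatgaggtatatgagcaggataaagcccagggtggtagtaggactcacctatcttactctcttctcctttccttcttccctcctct
Eno3: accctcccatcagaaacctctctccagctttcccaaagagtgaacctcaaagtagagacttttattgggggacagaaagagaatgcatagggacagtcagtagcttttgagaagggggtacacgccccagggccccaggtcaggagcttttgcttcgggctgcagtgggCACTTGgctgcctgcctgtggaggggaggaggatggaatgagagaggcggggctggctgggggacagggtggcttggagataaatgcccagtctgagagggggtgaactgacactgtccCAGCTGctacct

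Acta1 held 2 E-boxes, 1 CArG box and 1 TATA box, Myl3 held 1 E-box and 1 CArG box, and Pgam2 held 5 E-boxes and 1 MEF2 site. Atp2a1 held 1 E-box and Eno3 held 2, with none of the other motifs in either window. A window was found for 16 of the 20 fibre genes that passed the filter. At least 1 E-box was present in 15 of these 16, against 75.0% of 27025 genes. A MEF2 site was present in 2 of them (Pgam2 and Pvalb), against 3.7% of genes, and a CArG box in 2 (Acta1 and Myl3), against 1.81%. A TATA box was present in 4 of the 16 (Acta1, Myl1, Myl2 and Tnnt1), against 15.7% of genes. These matches describe letters in the windows and were not tested.

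Between 6587 and 9943 probes per array were detected, that is, had a detection p-value under 0.01. Levels below are log2 values of background-corrected, quantile-normalized intensity with an offset of 16, which understates the changes of dim probes, and a level of 1 probe is not comparable with that of another. Of the markers that define FAPs, Pdgfra, Dcn and Cd34 were detected on 6 of 6 arrays in each group. Gsn, another FAP marker, was detected on no old activated and no young activated array (mean levels 4.36 and 4.33). Its mean level was 6.36 in old quiescent and 6.11 in young quiescent FAPs. Markers of other cells were present too. The mean level of 14 macrophage markers ran from 9.88 to 10.99 in old activated and from 6.73 to 10.3 in old quiescent FAPs, and from 8.42 to 10.88 in young activated and from 6.16 to 7.0 in young quiescent FAPs. Among myogenic genes, Pax7, Pax3, Myf5, Myod1, Myf6 and Mymk were not detected on any array, and Myog was detected on 1 old quiescent and 1 young activated array. Of 16 myogenic genes with a probe, 5 passed the detection filter, among them Chodl, Heyl and Vcam1. Their mean level ran from 5.91 to 6.64 in old activated and from 5.77 to 7.52 in old quiescent FAPs. In young mice it ran from 6.21 to 6.79 in activated and from 6.61 to 7.57 in quiescent FAPs. In bulk RNA such as this, fewer cells of a type and less RNA per cell cannot be told apart.

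Some arrays were the highest of their group for many of the fibre genes. Old activated array 1 was the highest of its group for 13 of the 20 genes tested, and young quiescent array 6 for 16 of 20. Young activated array 1 was highest for 11 and old quiescent array 2 for 9. The same count was not made over all features, so these numbers do not show whether this is particular to fibre genes. The mean level of the 20 genes was 7.82 on old activated array 1, where the median of its group was 6.62, and 8.27 on young quiescent array 6, where the median of its group was 7.16. The counts of called genes, and the values of genes for which old activated array 1 or young quiescent array 6 moves a result, are also given without them. Both arrays were picked for being high in these same genes, so values without them are no independent support for a change.

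**Figure D1:**
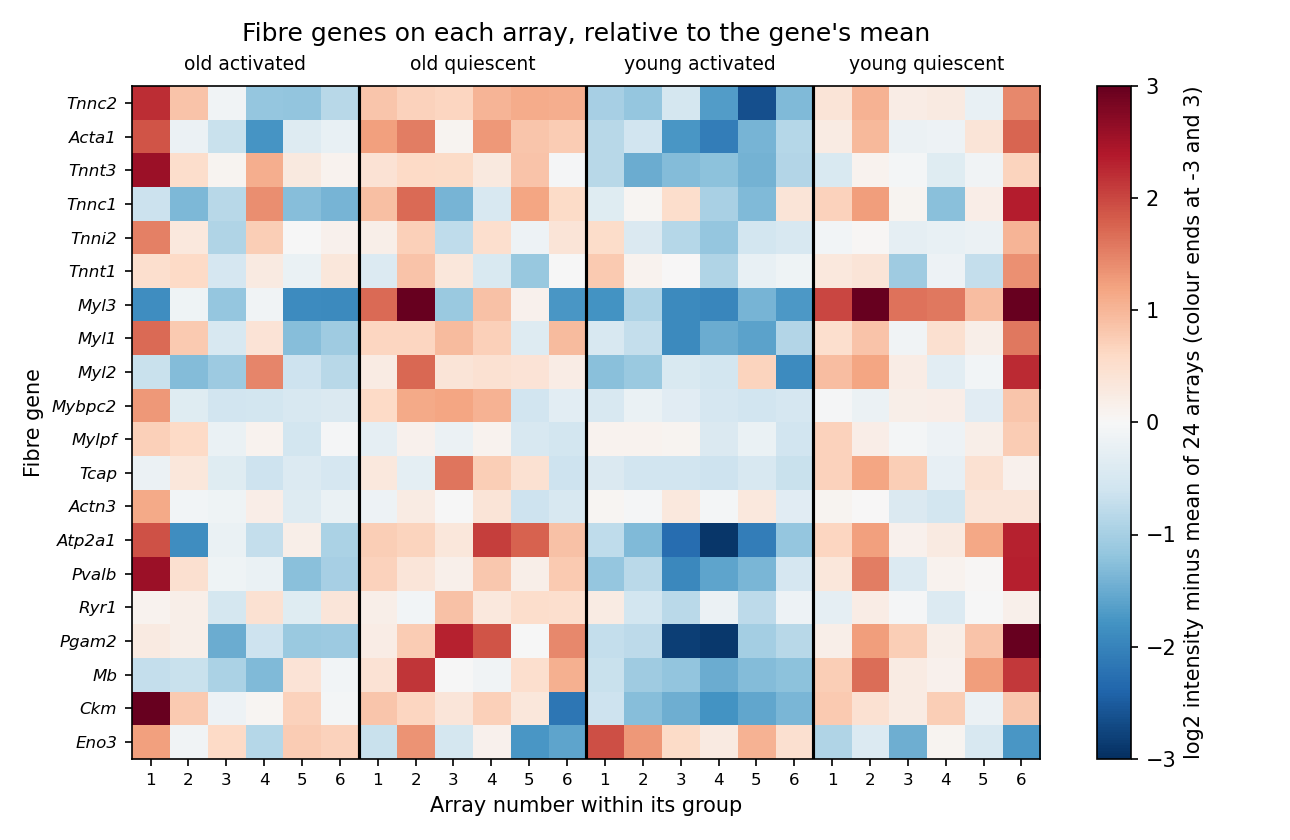
Level of the 20 tested fibre genes (rows, by role) on each of the 24 arrays (columns, by group), as the log2 intensity minus the gene's mean over all arrays, with colours ending at -3 and 3. Old activated array 1 is red for most genes, and array 4 is red for Tnnc1 and Myl2, in a block that is otherwise mostly pale or blue. The young activated block is mostly blue except for Eno3, and young quiescent array 6 is the reddest of its group.

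Detection of the fibre genes was partial. Between 11 and 22 of the 36 genes with a probe were detected on an array. The fewest, 11, were found on young activated arrays 3 and 4, and the most, 22, on old quiescent array 2. Not detected on any array were Tnni1, the slow troponin I, Myh7, the slow myosin heavy chain, Mybpc1, the slow myosin-binding protein C, and Casq1, the fast calsequestrin that stores calcium. The same held for Trdn and Sln, partners of the calcium release channel and the calcium pump, for Ldb3 and Myot of the Z disc, and for Pygm, the muscle glycogen phosphorylase. The fast myosin heavy chain Myh4 was detected on 4 of 24 arrays, 1 in each group, and Myh1 on 2. Titin (Ttn) was detected on 4 arrays, the mitochondrial creatine kinase Ckmt2 and the Z-disc protein Myoz1 on 2 each, and Actn2, a Z-disc actinin, and Car3, a carbonic anhydrase, on 1 each. No probe was named for Myh2, Neb and Smpx.

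Genes detected on all 24 arrays were Acta1, Tnnc2, Tnni2 and Tnnt1 of the thin filament, Myl1 of the thick filament, and Atp2a1 and Pvalb of calcium handling. Several genes passed the filter mainly through 1 or more groups. Myl3 was detected on 3 of 6 old activated, 4 of 6 old quiescent, 1 of 6 young activated and 6 of 6 young quiescent arrays. For Tcap these numbers were 1, 4, 0 and 4, and for Mybpc2 1, 4, 0 and 3. A gene that passed through the groups where it is high had to differ between groups, so the 7 genes detected on all arrays are counted apart below.

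**Figure D2:**
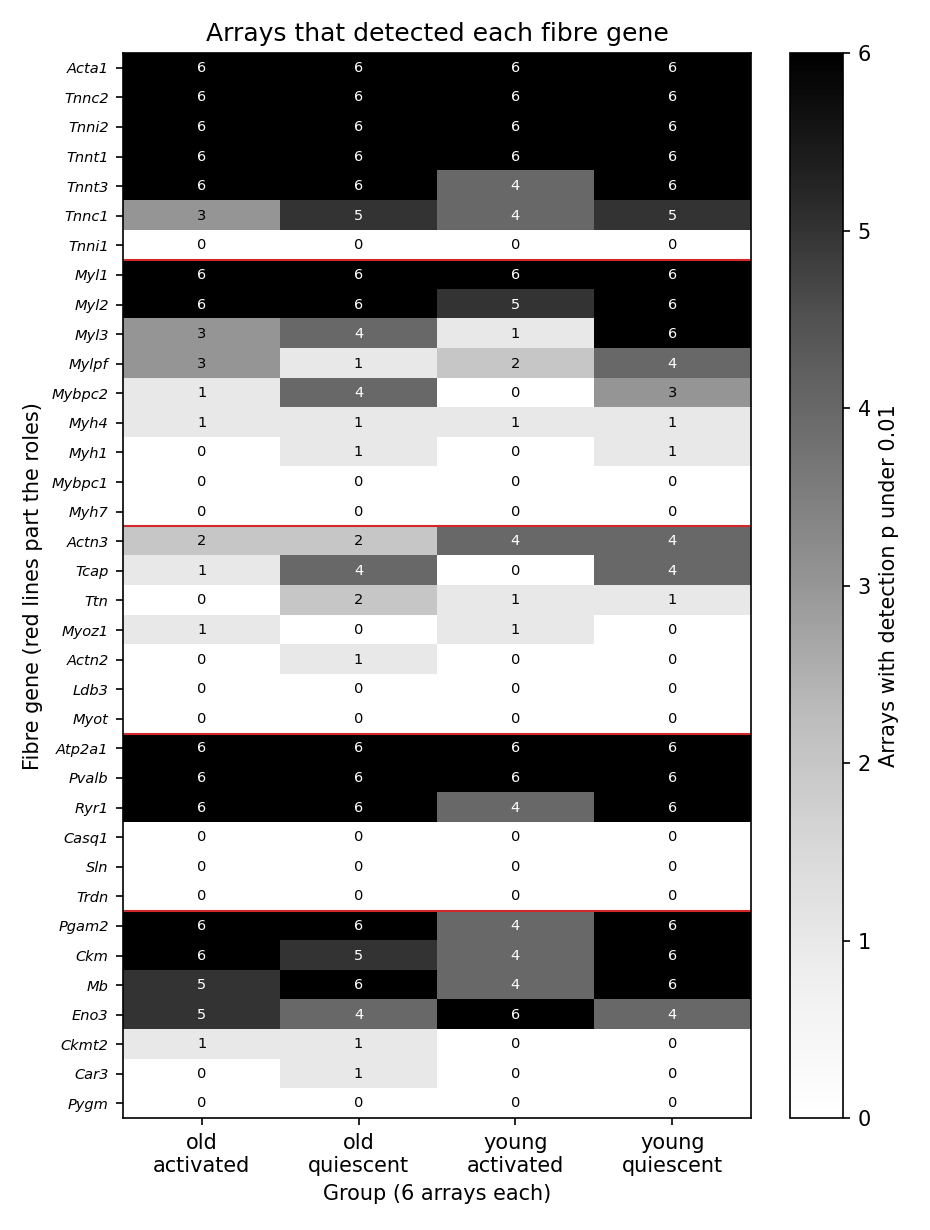
Number of arrays, of 6 in each group, on which each of 36 fibre genes had a detection p-value under 0.01, with red lines between the roles. Acta1, Tnnc2, Tnni2, Tnnt1, Myl1, Atp2a1 and Pvalb read 6 in all 4 groups, and 9 genes read 0 throughout.

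Activated FAPs were compared with quiescent FAPs at each age, to ask how the fibre genes' RNA in the sorted cells changed 3 days after injury. In young mice, 12 of the 20 tested fibre genes were lower in activated FAPs, where 16.6% of 8140 features were called lower, and 1, Eno3, was higher, where 17.2% were called higher (limma, adjusted p under 0.05). The median log2 change of the 20 genes was -1.31, and that of all features was -0.01. In old mice 4 of 20 were lower, where 13.8% of features were called lower, and 0 were higher, where 14.4% were called higher. The median log2 change there was -0.61, against -0.004 for all features. Without adjustment, 13 of the 20 genes had p under 0.05 in young mice and 8 in old mice. The share of all features at an unadjusted p under 0.05 was not counted, here or below, so such counts cannot be judged against it.

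Of the 7 genes detected on all arrays, 5 were lower in young activated FAPs, where 20.5% of the features detected on all arrays were called lower. In old mice 2 of these 7 were lower, where the share of features was 17.6%. Groups that do not overlap give the same picture of the young mice. For 11 of the 20 genes every young activated array lay below every young quiescent array, which held for 10.8% of features, and for Eno3 every one lay above, which held for 11.4%. In old mice 0 of the 20 genes had groups without overlap, against 4.47% of features lower and 4.35% higher. By role, the 12 genes lower in young activated FAPs were 3 of 6 tested thin filament genes, 3 of 5 thick filament genes, 1 of 2 Z-disc genes, 2 of 3 calcium-handling genes and 3 of 4 metabolic genes. In old mice they were 1 thin filament, 1 calcium-handling and 2 metabolic genes.

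Old activated array 1 was singled out because it was high for many of these same genes. A deeper fall of those genes without it follows from that choice and is no added support. Without this array, 6 fibre genes in place of 4 were lower in old activated FAPs, where 12.7% of features were called lower. The added genes were Tnnc2, with a log2 change of -1.38 (adjusted p = 0.00764), and Mybpc2 (adjusted p = 0.0101), both by limma. Mybpc2 was not detected on the 5 old activated arrays that remained, so no size is given for it. With young quiescent array 6 left out as well, a choice made after seeing the data, the number was 7, where 12.8% of features were lower, and Pvalb was added (log2 change -0.92, adjusted p = 0.0459). The same step left 11 genes lower in young activated FAPs, where 15.8% of features were lower. Of the single arrays left out, 3 brought the number in old mice to 2: old activated array 3, old activated array 6 and old quiescent array 4. The share of features called lower in these fits is not given.

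**Figure D3:**
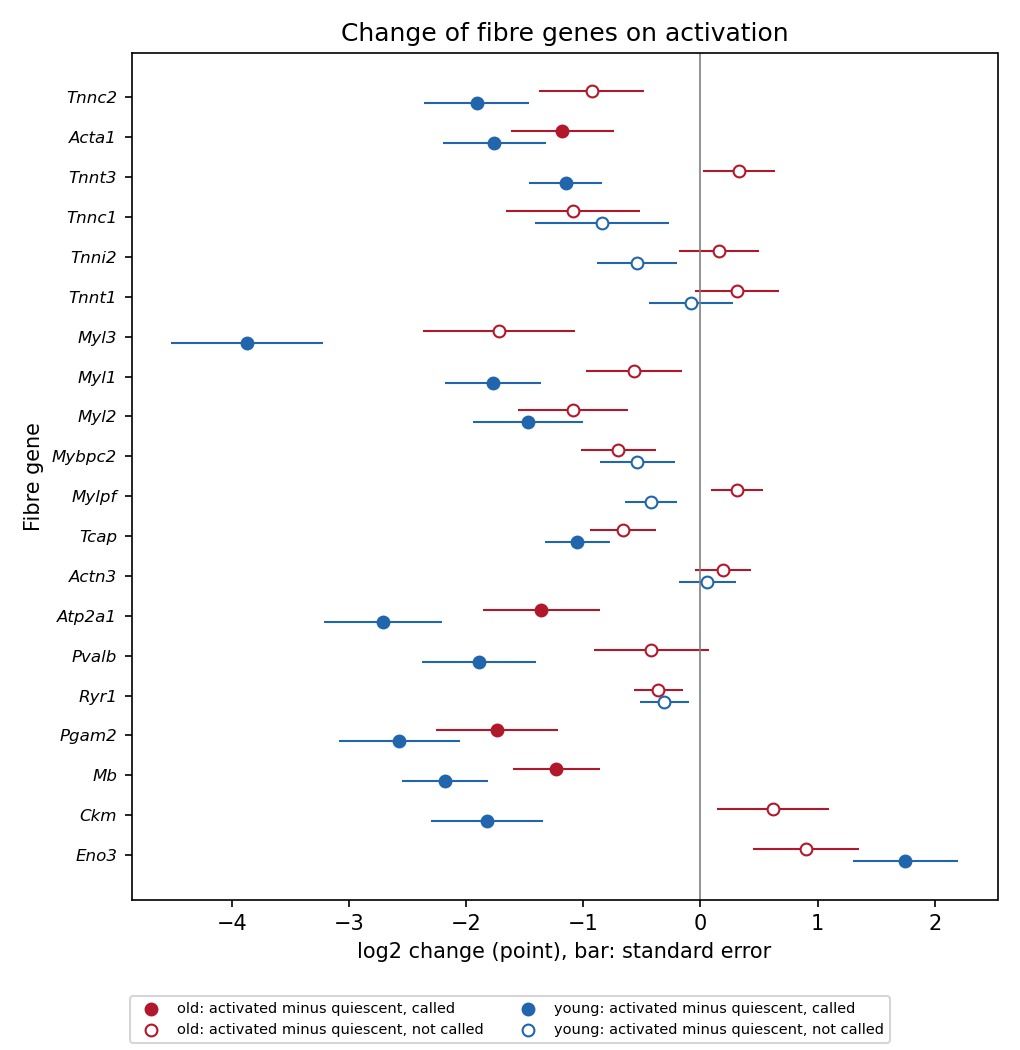
Change of each tested fibre gene on activation, as activated minus quiescent on the log2 scale with its standard error from limma, in old (red) and young (blue) mice, with filled points for an adjusted p under 0.05. In young mice 12 filled points lie below 0 and that of Eno3 above, while in old mice Acta1, Atp2a1, Pgam2 and Mb are filled.

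Markers of other cell types moved with activation as well, and their part in the results on fibre genes was not tested. Of all features 14.4% were called higher and 13.8% lower in old activated FAPs, and 17.2% higher and 16.6% lower in young activated FAPs. Of 14 tested macrophage markers, 13 rose in old and 14 in young activated FAPs, and 0 fell. Of 12 endothelial markers 4 were lower in old and 11 in young activated FAPs. Their mean level ran from 7.68 to 8.3 in old activated and from 8.27 to 9.67 in old quiescent FAPs, and from 6.24 to 7.54 in young activated and from 9.15 to 10.07 in young quiescent FAPs. All 3 tested red blood cell markers were lower on activation at both ages. They averaged 8.19 to 9.59 in old activated, 9.91 to 12.09 in old quiescent, 6.4 to 8.0 in young activated and 10.12 to 11.03 in young quiescent FAPs. Of 12 smooth muscle and pericyte markers 2 were lower in old activated FAPs, near the share of all features, and 5 in young activated FAPs. Of 15 FAP markers 10 were lower at each age, and 1 was higher in old mice. Their mean level lay between 8.32 and 8.94 in old activated, 9.31 and 10.08 in old quiescent, 8.38 and 9.11 in young activated, and 9.76 and 10.19 in young quiescent FAPs.

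Acta1, the skeletal muscle actin of the thin filament, was lower in activated FAPs at both ages. Its level ran from 6.48 to 10.14 in old activated FAPs (median 7.95), against 8.33 to 9.78 in old quiescent FAPs (median 9.28). In young mice it ran from 6.18 to 7.67 in activated (median 7.11), against 8.08 to 9.99 in quiescent FAPs (median 8.56). The young groups did not overlap, and in old mice 5 of 6 activated arrays lay below the quiescent mean, with array 1 above every quiescent array. The log2 change was -1.76 ± 0.44 (SE) in young mice, a 3.38-fold lower level (limma adjusted p = 0.00287, n = 6 each). In old mice it was -1.18 ± 0.44, or 2.26-fold (limma adjusted p = 0.0454), and without old activated array 1 it was -1.6 (adjusted p = 0.00234). That call in old mice sat at the threshold: it was lost in 20 of 40 alternatives, with adjusted p between 0.00111 and 0.126. These include leaving out any of old activated arrays 2 to 6, old quiescent arrays 1, 2, 4, 5 or 6, young activated array 5, or young quiescent arrays 1 or 5.

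Troponin C binds the calcium that starts contraction, and Tnnc2 is its fast form. Tnnc2 ran from 6.4 to 8.51 in young activated FAPs (median 7.79), against 8.8 to 10.48 in young quiescent FAPs (median 9.36). These groups did not overlap, and the level was 3.75-fold lower in activated FAPs (log2 change -1.91 ± 0.45 SE, limma adjusted p = 0.00185, n = 6 each). In old mice the range was 7.84 to 11.26 in activated (median 8.57), against 9.68 to 10.14 in quiescent FAPs (median 9.96). Here 5 of 6 activated arrays lay below the quiescent mean and array 1 lay highest of all, and the log2 change of -0.93 did not pass (limma adjusted p = 0.128). The slow form Tnnc1 did not pass at either age, with log2 changes of -1.09 in old and -0.84 in young mice (limma adjusted p = 0.155 and 0.274).

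The other troponin subunits behaved unevenly. Troponin T ties the complex to tropomyosin, and its fast form Tnnt3 ran from 4.81 to 5.47 in young activated FAPs (median 5.02), against 5.83 to 6.95 in young quiescent FAPs (median 6.21). Again these groups did not overlap, and the change was -1.15 ± 0.31 on the log2 scale, 2.22-fold lower (limma adjusted p = 0.00568, n = 6 each). It was lost with no background correction and on the deposited normalized values (adjusted p up to 0.0954). Over 39 alternatives the size of the change varied from -0.42 to -1.68. In old mice Tnnt3 ran from 6.37 to 8.87 in activated (median 6.7) and from 6.26 to 7.15 in quiescent FAPs (median 6.79). These ranges overlapped and the change of 0.33 did not pass (limma adjusted p = 0.471), nor did that of -0.03 without old activated array 1 (adjusted p = 0.94). Its slow counterpart Tnnt1 was nearly level: the group medians were 9.36 in old activated, 8.83 in old quiescent, 8.99 in young activated and 9.11 in young quiescent FAPs. Tnni2, the fast form of the inhibitory subunit, had medians of 10.64, 10.69, 9.89 and 10.27 in the same 4 groups. Neither Tnnt1 nor Tnni2 was called at either age (limma adjusted p of 0.572 and 0.787 in old, 0.894 and 0.235 in young mice).

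**Figure D4:**
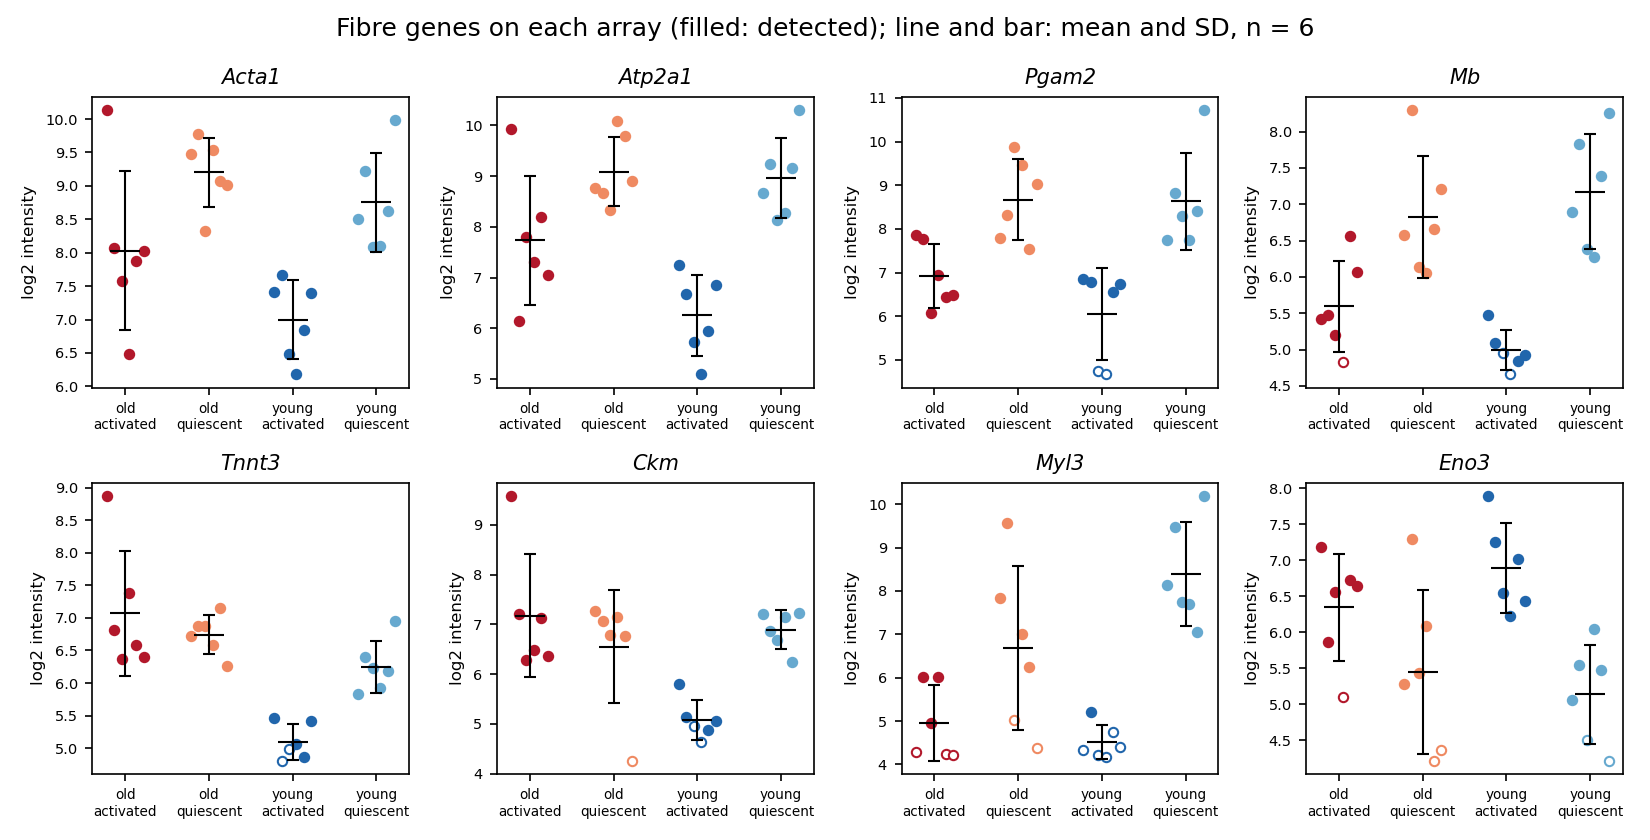
Log2 intensity of 8 fibre genes on each array by group, with the mean and SD (n = 6) and open points for arrays on which the probe was not detected. For Acta1, Atp2a1, Pgam2, Mb, Tnnt3, Ckm and Myl3 the young activated points lie below the young quiescent points, for Eno3 they lie above, and the highest old activated point of Acta1, Atp2a1, Tnnt3 and Ckm is array 1.

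Among the thick filament genes the light chains of myosin, which stiffen and tune its neck, gave the calls. Myl3, the slow and ventricular essential light chain, had the largest fitted change of the fibre genes in young mice, where it was detected on 1 of 6 activated arrays. It ran from 4.17 to 5.2 in young activated FAPs (median 4.37), against 7.05 to 10.19 in young quiescent FAPs (median 7.94). In old mice it ran from 4.21 to 6.02 in activated (median 4.62), against 4.38 to 9.56 in quiescent FAPs (median 6.62). The young groups were wide apart, while the old quiescent arrays spread over the levels of both young groups. The fitted log2 change in young mice was -3.87 ± 0.65 (SE, limma adjusted p = 5.35e-05, n = 6 each). Its size varied with the setting, from -1.98 to -5.56 over 39 alternatives, in all of which it was called. In old mice the change of -1.72 ± 0.65 missed the threshold (limma adjusted p = 0.0503), although all 6 activated arrays lay below the quiescent mean, and it passed in 12 of 39 alternatives (adjusted p from 0.0111 to 0.137).

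Myl1, the fast essential light chain, ran from 7.22 to 8.65 in young activated FAPs (median 7.95), against 9.04 to 10.72 in young quiescent FAPs (median 9.64). No young activated array reached a young quiescent one, and the level was 3.41-fold lower (log2 change -1.77 ± 0.41 SE, limma adjusted p = 0.00157, n = 6 each). The old groups overlapped, with 7.86 to 10.84 in activated (median 9.1) and 8.76 to 10.08 in quiescent FAPs (median 9.81), and gave no call (log2 change -0.57, limma adjusted p = 0.323), nor without old activated array 1 (-0.91, adjusted p = 0.0757). These values rest on 1 probe, as the other probe of Myl1 was detected on 0 of 24 arrays. Myl2, the slow and ventricular regulatory light chain, ran from 4.64 to 7.18 in young activated (median 5.69), against 6.2 to 8.77 in young quiescent FAPs (median 7.1). These groups overlapped, though all 6 activated arrays lay below the quiescent mean. Its log2 change of -1.47 ± 0.47 (limma adjusted p = 0.0171) no longer passed without young activated array 6 (-1.24, adjusted p = 0.0507) or without young quiescent array 6 (-1.16, adjusted p = 0.0544). In old mice the change was -1.09 (limma adjusted p = 0.0847).

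Mylpf, the fast regulatory light chain, was dim and not called, with log2 changes of 0.31 in old and -0.42 in young mice (limma adjusted p = 0.314 and 0.152). Mybpc2, the fast myosin-binding protein C, was detected on none of the young activated arrays, and no bound could be set, since the young quiescent mean of 4.84 lay under the floor of 4.85. It was not called in young mice (limma adjusted p = 0.207).

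Of the Z-disc genes, only Tcap and Actn3 could be tested. Tcap, the titin cap that binds the end of titin, ran from 4.17 to 4.41 in young activated FAPs, on none of which it was detected, against 4.6 to 6.02 in young quiescent FAPs (median 5.41). With the main processing it was at least 1.4-fold lower in young activated FAPs, a bound set by the dimmest detected signal of each array (limma adjusted p = 0.00566, n = 6 each). The bound is approximate, since 4 of 6 young quiescent arrays detected Tcap. Its fitted log2 change varied with the setting, from -0.33 to -2.46 over 39 alternatives, in all of which it was called. In old mice Tcap had a median of 4.44 in activated and 5.23 in quiescent FAPs, and its change of -0.66 did not pass (limma adjusted p = 0.0843). Actn3, the fast Z-disc actinin, did not separate the groups, with medians between 4.89 and 5.05 (limma adjusted p = 0.604 in old and 0.876 in young mice).

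Calcium handling held the strongest call among the genes detected on every array. Atp2a1, the fast-fibre calcium pump SERCA1, ran from 5.09 to 7.24 in young activated FAPs (median 6.31), against 8.14 to 10.31 in young quiescent FAPs (median 8.91). In old mice it ran from 6.15 to 9.92 in activated (median 7.55), against 8.34 to 10.08 in quiescent FAPs (median 8.83). The young groups were separate, and in old mice array 1 of the activated group lay among the quiescent arrays while the other 5 lay below all of them. The level was 6.54-fold lower in young activated FAPs (log2 change -2.71 ± 0.50 SE, limma adjusted p = 0.000145, n = 6 each). In old activated FAPs it was 2.56-fold lower (-1.36 ± 0.5 SE, limma adjusted p = 0.0435), and without array 1 the change was -1.79 (adjusted p = 0.00399). The call in old mice was lost in 11 of 40 alternatives, with adjusted p up to 0.119, among them leaving out old activated arrays 2, 3, 4 or 6 or old quiescent arrays 4, 5 or 6.

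Pvalb, the calcium buffer parvalbumin of fast fibres, ran from 6.32 to 7.74 in young activated FAPs (median 6.97), against 7.85 to 10.58 in young quiescent FAPs (median 8.47). These groups did not overlap, and the level was 3.71-fold lower (log2 change -1.89 ± 0.49 SE, limma adjusted p = 0.00427, n = 6 each). Old mice gave 6.99 to 10.81 in activated (median 8.09) and 8.41 to 9.05 in quiescent FAPs (median 8.79), and 5 of 6 activated arrays lay below the quiescent mean without a call (limma adjusted p = 0.568). Ryr1, the calcium release channel, was not called (limma adjusted p = 0.223 in old and 0.288 in young mice), and its probes disagreed. The brightest averaged 5.52 ± 0.4 in old activated and 5.88 ± 0.33 in old quiescent FAPs (SD, n = 6 each). The 3 other probes of Ryr1 were higher in activated FAPs at both ages: the brightest of them averaged 5.88 ± 0.63 in old activated and 5.02 ± 0.7 in old quiescent FAPs, and 5.09 ± 0.64 in young activated and 4.87 ± 0.38 in young quiescent FAPs.

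The metabolic genes gave the calls in old mice that held best. Pgam2, the muscle phosphoglycerate mutase of glycolysis, ran from 6.08 to 7.85 in old activated FAPs (median 6.72), against 7.55 to 9.87 in old quiescent FAPs (median 8.68). In young mice it ran from 4.67 to 6.85 in activated (median 6.64), against 7.75 to 10.73 in quiescent FAPs (median 8.36). The young groups were apart and the old groups met only at their edges. The level was 5.94-fold lower in young activated FAPs (log2 change -2.57 ± 0.52 SE, limma adjusted p = 0.000438, n = 6 each) and 3.35-fold lower in old activated FAPs (-1.74 ± 0.52 SE, limma adjusted p = 0.0138). Both calls held in 39 of 39 alternatives, with changes from -1.575 to -3.06 in young and from -1.21 to -1.97 in old mice.

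Mb, the oxygen-binding myoglobin, ran from 4.83 to 6.56 in old activated FAPs (median 5.45), against 6.05 to 8.3 in old quiescent FAPs (median 6.62). In young mice it ran from 4.66 to 5.48 in activated (median 4.93), against 6.28 to 8.26 in quiescent FAPs (median 7.14). The old groups overlapped at 2 activated arrays and the young groups did not overlap. The level was 4.54-fold lower in young (log2 change -2.18 ± 0.37 SE, limma adjusted p = 5.53e-05, n = 6 each) and 2.34-fold lower in old activated FAPs (-1.23 ± 0.37 SE, limma adjusted p = 0.0141). The call in old mice was lost only with array weights, of 39 alternatives (adjusted p = 0.0576). The sizes varied with the setting, from -0.96 to -2.96 in young and from -0.56 to -1.6 in old mice. The other probe of Mb was detected on 3 of 24 arrays, 1 old quiescent and 2 young quiescent.

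Ckm is the cytosolic creatine kinase that buffers ATP. It ran from 4.63 to 5.8 in young activated FAPs (median 5.01), against 6.24 to 7.22 in young quiescent FAPs (median 7.01). At the older age it ran from 6.28 to 9.58 in activated (median 6.8) and from 4.26 to 7.26 in quiescent FAPs (median 6.93). The young groups did not overlap, whereas the old medians were close and both old groups held an outlying array. The level was 3.52-fold lower in young activated FAPs (log2 change -1.82 ± 0.48 SE, limma adjusted p = 0.00474, n = 6 each), and the change of 0.62 in old mice did not pass (limma adjusted p = 0.356). Without old activated array 1 the change in old mice was 0.14 (adjusted p = 0.835). In young mice 4 of 6 activated arrays detected Ckm, and its change varied from -0.74 to -2.52 over 39 alternatives.

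Eno3, the muscle enolase of glycolysis, was the exception in direction. It ran from 6.23 to 7.89 in young activated FAPs (median 6.77), against 4.22 to 6.05 in young quiescent FAPs (median 5.27). Its range in old mice was 5.1 to 7.18 in activated (median 6.6) and 4.22 to 7.3 in quiescent FAPs (median 5.36). Every young activated array lay above every young quiescent array, and 5 of 6 old activated arrays lay above the old quiescent mean. The level was 3.37-fold higher in young activated FAPs (log2 change 1.75 ± 0.45 SE, limma adjusted p = 0.00367, n = 6 each). That size varied with the setting, from 0.74 to 2.59 over 39 alternatives. The change of 0.9 in old mice did not pass, except without old quiescent array 2 (1.27, limma adjusted p = 0.0202).

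The isoforms of fast and slow fibres were also set out by array. The mean level of the 9 tested fast genes (Tnnt3, Tnnc2, Tnni2, Actn3, Myl1, Mylpf, Pvalb, Atp2a1 and Mybpc2) ran from 6.78 to 9.04 in old activated FAPs (median 7.15), against 7.49 to 8.07 in old quiescent FAPs (median 7.67). In young mice it ran from 6.07 to 6.85 in activated (median 6.44), against 7.21 to 8.55 in quiescent FAPs (median 7.47). The 4 tested slow genes (Tnnt1, Tnnc1, Myl2 and Myl3) averaged 5.84 to 7.59 in old activated (median 6.05) and 6.4 to 8.76 in old quiescent FAPs (median 6.96). They averaged 5.75 to 6.38 in young activated (median 6.22) and 6.8 to 9.35 in young quiescent FAPs (median 7.44).

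The arrays highest for the fast genes were those highest for the slow genes in young quiescent FAPs and not in the other groups. Old activated array 1 was highest of its group for the fast genes, at 9.04, and stood at 6.17 for the slow genes. Old activated array 4 was highest for the slow genes, at 7.59, and stood at 7.29 for the fast genes. Old quiescent array 2 was highest of its group for the slow genes, at 8.76, and young quiescent array 6 was highest of its group for both, at 8.55 and 9.35. Of the fast genes 5 of 9 were called lower in young activated FAPs and of the slow genes 2 of 4, where 16.6% of all features were. In old activated FAPs 1 of 9 fast genes, Atp2a1, and 0 of 4 slow genes were called lower by limma, where 13.8% of features were, which is near or below that share.

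**Figure D5:**
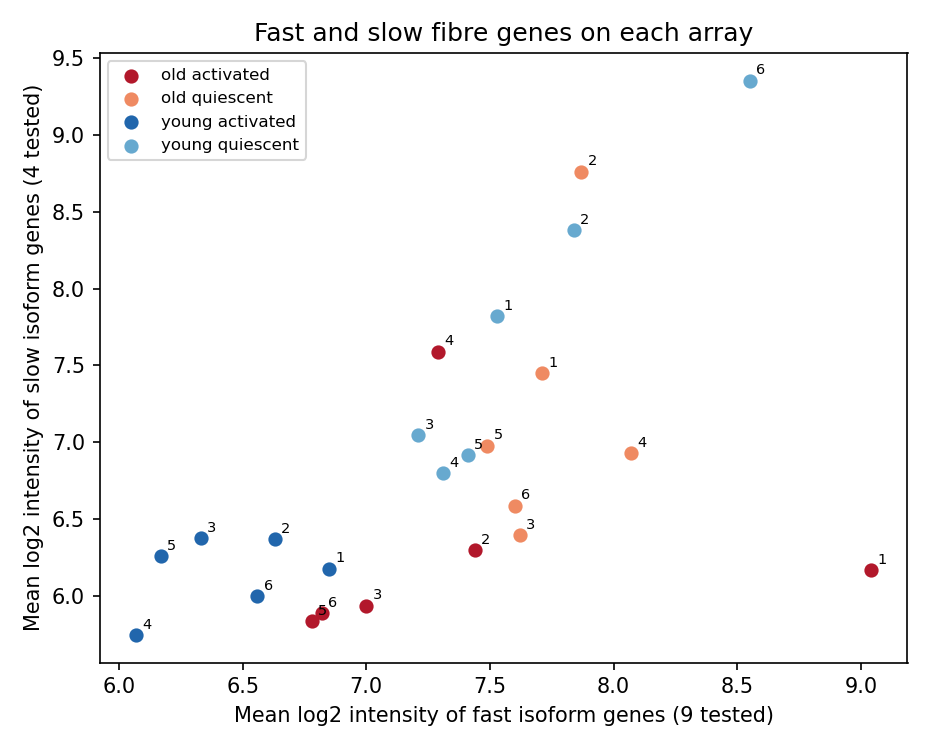
Mean log2 intensity of the 4 tested slow genes (vertical) against that of the 9 tested fast genes (horizontal) on each array, numbered within its group. Young activated arrays cluster at the lower left, old activated array 1 lies far right at 9.04 for fast genes with 6.17 for slow genes, and young quiescent array 6 is high on both axes.

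How closely the fibre genes moved together within groups was described by correlating each gene's deviations from its group means with the mean deviation of the other tested fibre genes, over 24 arrays that share their hybridization and normalization. Pearson's r was 0.803 for Pvalb, 0.783 for Tnni2 and 0.772 for Acta1. It was 0.206 for Eno3, 0.166 for Ryr1 and 0.036 for Tcap. Without old activated array 1 and young quiescent array 6 the first 3 were 0.582, 0.637 and 0.557 over 22 arrays. Outside the list, the named genes most like the fibre genes by this measure were Cox6a2 (0.832), the muscle and heart subunit of cytochrome c oxidase, then Abhd12 (0.791), Fxyd3 (0.742) and Fabp3 (0.731). They were followed by Tcte3 (0.707), Pbk (0.7), Abcg1 (0.698), Gpc1 (0.689), Nt5c2 (0.68) and Ccl24 (0.678). Without both arrays Cox6a2 stood at 0.779, Tcte3 at 0.45 and Abcg1 at 0.455. The measure leaves out differences between groups, so likeness by it is not likeness of the change on activation. In old activated FAPs Fabp3, Pbk and Abhd12 were called higher by limma (log2 changes 2.77, 2.64 and 0.53). Fxyd3 was called lower (-1.23), and the others were not called there.

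Old mice were compared with young mice within each state, to ask whether the fibre genes differed with age. In quiescent FAPs 0 of 20 fibre genes were called by limma, where 0.577% of features were called, and 3 had p under 0.05 without adjustment. No fibre gene had groups without overlap, against 0.504% of features higher and 0.639% lower in old mice. The median log2 difference, old minus young, was -0.04, against -0.014 for all features. Acta1, for example, ran from 8.33 to 9.78 in old quiescent FAPs and from 8.08 to 9.99 in young quiescent FAPs. The widest difference was that of Myl3, at -1.7 ± 0.65 (SE, limma adjusted p = 0.245), and 5 of 6 old quiescent arrays lay below the young quiescent mean.

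In activated FAPs 1 of 20 fibre genes, Tnnt3, was higher in old mice, where 0.221% of features were called higher, and 0 were lower, where 0.0491% were called lower (limma). Without overlap, 0 of 20 were lower, against 0.467% of features. Its 6 old activated arrays, between 6.37 and 8.87, all lay above its 6 young activated arrays, between 4.81 and 5.47. The level was 3.91-fold higher in old activated FAPs (log2 difference 1.97 ± 0.31 SE, limma adjusted p = 0.00264, n = 6 each), and without old activated array 1 the difference was 1.61 (adjusted p = 0.000652). The probe was detected on 4 of 6 young activated arrays. The difference varied with the setting, from 0.89 to 2.63 over 39 alternatives, in all of which it was called. Ckm was the only other fibre gene whose groups did not overlap, which 0.577% of features did in that direction, with 6.28 to 9.58 in old activated and 4.63 to 5.8 in young activated FAPs. Its difference of 2.1 ± 0.48 missed the threshold (limma adjusted p = 0.0623) and passed it in 9 of 39 alternatives, with adjusted p from 0.00476 to 0.169. Without old activated array 1 it was 1.62 (adjusted p = 0.0954). The median difference of the 20 genes was 0.52, against -0.018 for all features, 18 of 20 were above 0, and 8 had p under 0.05 without adjustment. The shares of all features above 0 and at that unadjusted p were not counted, so the 18 and the 8 show no age effect by themselves. This comparison shares the old and the young activated arrays with the comparisons of activation, so its values are not independent of them. Endothelial and red blood cell markers moved in the same comparison: 2 of 12 and 1 of 3 were higher in old activated FAPs, and their part in the difference of Tnnt3 was not tested.

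Whether the change on activation differed between the ages was tested as an interaction, the change in old minus that in young mice. By limma 0 of 20 fibre genes passed, where 0.184% of features did, and 6 had p under 0.05 without adjustment. The interaction was 1.48 ± 0.44 (SE) for Tnnt3 (limma adjusted p = 0.194) and 2.44 ± 0.68 for Ckm (limma adjusted p = 0.16). Without old activated array 1 these were 1.12 and 1.96 (adjusted p = 0.189 for each). For Myl3 it was 2.15 ± 0.92 (limma adjusted p = 0.506), and for Atp2a1 1.35 ± 0.7 (limma adjusted p = 0.617). The fibre genes called in young but not in old mice are therefore not shown to differ between the ages. The median over the 20 genes was 0.71, against -0.007 for all features.

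Other genes of the same structures were counted from lists of further fibre genes. Of 40 other sarcomere genes 30 had a probe and 18 were tested, and of these 4 were lower and 2 higher in old activated FAPs, and 5 lower and 1 higher in young activated FAPs. Of all features 13.8% were called lower and 14.4% higher in old, and 16.6% lower and 17.2% higher in young activated FAPs, so the genes called higher were near or below the share of all features. Pdlim3, a Z-disc protein that binds actinin, averaged 6.02 ± 0.73 in old activated and 8.5 ± 0.79 in old quiescent FAPs, and 4.98 ± 0.58 in young activated and 8.01 ± 1.1 in young quiescent FAPs (SD, n = 6 each). Its log2 change was -2.48 in old (limma adjusted p = 0.000195) and -3.03 in young mice (1.02e-05). Fhl1, a LIM-domain protein of muscle, changed by -1.7 in old and -2.31 in young mice (limma adjusted p = 1.96e-06 and 7.72e-09). Nrap, which takes part in myofibril assembly, was detected on 0 of 6 young activated arrays and was at least 2.7-fold lower there than in young quiescent FAPs (limma adjusted p = 0.00681). Ankrd1, a stress-induced ankyrin repeat protein that binds titin, was higher, by 1.87 in old and 2.54 in young mice (limma adjusted p = 0.0451 and 0.00567). Tpm3, a tropomyosin, was higher in old activated FAPs (2.34, limma adjusted p = 0.0199).

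Of 30 other genes of the triad and the fibre membrane 12 were tested, and 1 was higher and 0 lower in old activated FAPs, while 2 were higher and 6 lower in young activated FAPs. Against the shares of all features, 14.4% higher and 13.8% lower in old and 17.2% higher and 16.6% lower in young mice, only the number lower in young mice stood clearly above. Atp2a2, the calcium pump SERCA2 of slow muscle and many other cells, changed by -1.67 in young mice (limma adjusted p = 0.00243), and Hrc, a calcium-binding protein of the store, by -1.68 (0.00109). The muscle acetylcholine receptor subunits went in opposite directions in young mice: Chrnb1 fell by 2.22 on the log2 scale (limma adjusted p = 0.0025). Chrna1, detected on 5 of 6 young activated and 0 of 6 young quiescent arrays, was at least 2.96-fold higher (limma adjusted p = 0.000807). Bin1, which shapes membrane tubules, was higher in old activated FAPs by 1.23 (limma adjusted p = 0.000376).

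Of 29 other fibre metabolism genes 15 were tested, and 3 were higher and 4 lower in old, 5 higher and 3 lower in young activated FAPs. Of all features 14.4% were higher and 13.8% lower in old, and 17.2% higher and 16.6% lower in young activated FAPs. The genes higher in old and lower in young mice were near those shares. Cox8b, a subunit of cytochrome c oxidase in heart and skeletal muscle, changed by -3.23 in old and -3.16 in young mice (limma adjusted p = 4.51e-07 and 1.73e-07). Ppp1r3c, which targets a phosphatase to glycogen, changed by -1.99 and -2.21 (limma adjusted p = 0.00135 and 0.000338). Adssl1, the muscle adenylosuccinate synthase, was higher by 2.5 in old and 3.07 in young mice (limma adjusted p = 0.000343 and 1.98e-05). Fabp3, a fatty acid binding protein, was higher by 2.77 and 1.69 (limma adjusted p = 3.18e-05 and 0.00311). Of 11 embryonic, neonatal and cardiac isoforms only Myl4 passed the filter, and it was not called (limma adjusted p = 0.419 in old and 0.878 in young mice). Of 5 tested genes of myogenic cells 2, Chodl and Heyl, were lower on activation at both ages, and Vcam1 was higher in young activated FAPs. By age, 0 genes of the sarcomere, triad and membrane, metabolism, isoform and myogenic lists were called by limma in quiescent or in activated FAPs.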

How the data were processed

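The authors deposited, per the file headers, 25697 probes on 24 Illumina 1-colour bead arrays, each with an intensity before normalization and a detection p-value, and also log2 values after normalization, used here as an alternative. The deposited intensities were not background-subtracted: the lowest of an array lay between 80.2 and 96.2. The deposited log2 columns had a median of 6.707 and lay within 0.118 of the log2 of quantile-normalized intensities, so their scale is known and genes were not centred. Partek is named, without a role, per the submitters' processing notes. Per the labels' protocols, RNA was labelled with biotin. The sources used here give no chip or scan batch and no meaning for a letter that each group's column names share, so it cannot be told apart from the group. Probe names came from the platform annotation: 23978 probes had 1 symbol, 0 several and 1719 none, and 23962 matched RefSeq by Entrez identifier.

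Background was removed with nec in limma 3.58.1 (R 4.3.3), using the detection p-values, and an offset of 16 was added before quantile normalization and log2. The brightest probe stood for a gene (4777 genes had over 1 probe) and was kept if its detection p-value was under 0.01 on at least 6 of 24 arrays. This left 8140 features, 7568 of them named genes and 572 unnamed probes. The 4 group means were fitted together (lmFit, eBayes), with p-values adjusted over all features by Benjamini-Hochberg and called under 0.05. A gene undetected in a whole group has only a bound, its fold taken against the lowest detected signal of each array. The steps were tested on simulated data. Arrays give no counts, so precision is limited by their number. No 2 arrays held identical values. Array numbers are not said to mark animals shared between groups, so the main fit held no replicate block.

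The fibre genes, the other lists and the alternatives were chosen with earlier results of these data known. Each of the 39 genes is accounted for, and values by array are given for those called in at least 1 comparison and for their fibre-type partners. Other genes are named only from the lists, at most 4 called genes per list and comparison with the largest change, defining markers of other cells, and the 10 genes outside the list most like the fibre genes, clone and predicted names left out. Alternatives changed the background correction, normalization, detection filter, probe rule, test, arrays fitted and replicate block, or left out arrays.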

Additional observations from a re-analysis of the deposited data

Results flagged for a closer look

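The 20 tested fibre genes were searched for arrays that stood apart within a group of 6, by the gap to the nearest array as a share of the group's range. Of 80 groups searched, 9 had an array beyond the 95% critical value of Dixon's test. In independent groups with a normal spread, about 1 of 20 pass that value. The groups here share arrays, and some hold undetected values near the floor. All features were not searched, so the 9 of 80 cannot be judged against that rate. Old activated array 1 stood apart for Mybpc2, where its level of 6.04 lay above the next at 4.37 (gap share 0.886), and for Ckm, where 9.58 lay above 7.21 (0.718). Old activated array 4 stood apart for a pair of slow genes: Tnnc1 at 7.05 above 5.01 (0.734) and Myl2 at 7.98 above 5.9 (0.755).

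Old quiescent array 2 stood apart for Myl2, at 8.25 above 6.97 (0.848). Some arrays stood apart on the low side: old quiescent array 6 was low for Ckm, at 4.26 below 6.77 (0.837), and old quiescent array 5 was low for Myl1, at 8.76 below 9.77 (0.768). Young quiescent array 6 was high for Tnni2, at 11.43 above 10.45 (0.764), and for Pgam2, at 10.73 above 8.83 (0.635). In young activated FAPs no fibre gene had an array that stood apart by this measure.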

How the results depend on the processing

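No alternative turned the direction of a called fibre gene. Of the 20 fibre genes tested, the number called on activation in old mice, 4, was 2 with array weights, 2 with only the compared groups fitted, 2 of 7 genes detected on all 24 arrays, and 7 with both old activated array 1 and young quiescent array 6 left out, an alternative added after seeing the data. With 1 array left out it ran from 2 to 6. Where it was 2 of 20, it lay below the 13.8% of features called lower in the main fit, and the share in those alternatives themselves is not given. In young mice the number, 13, was 5 of 7 genes detected on all arrays and ran from 12 to 13 with 1 array left out. The single call by age in activated FAPs, Tnnt3, was joined by Ckm, making 2, with median scaling, cyclic loess, trend and robust moderation, array weights, and without old activated arrays 3 or 6, old quiescent array 6 or young activated array 1. It ran from 1 to 2 with 1 array left out and was 0 of the 7 genes detected on all arrays, which do not include Tnnt3 or Ckm. By age in quiescent FAPs and for the interaction the count was 0 in every alternative run (limma, with 3 and 6 of 20 at an unadjusted p under 0.05). With the replicate block the counts were 5 in old mice, 13 in young mice, 2 by age in activated FAPs and 0 in both others. Same-numbered arrays of different groups had a median correlation of 0.051 (from -0.091 to 0.364), against -0.01 for arrays with other numbers. Of 24 arrays, 8 correlated best with their own number. These values do not settle whether the numbers pair the arrays, and no label says so. The median change of all features moved by under 0.1 under any scaling. The causes of these changes were not tested. With no background correction and on the deposited normalized values the change of Tnnt3 in young mice no longer passed. A probe that no array of a group detected gives a bound rather than a fold.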

Other observations

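Markers of 4 further cell types that lie in or near muscle were read as possible company of the sorted cells, and their part in the results on fibre genes was not tested. Of 7 tested lymphocyte markers, 5 were lower in old and 1 in young activated FAPs, and 3 (Mzb1, Cd3d and Cd3g) were higher in old than in young quiescent FAPs. The 1 lower in young mice was near the 16.6% of all features called lower there, against 13.8% in old mice. By age in quiescent FAPs 0.577% of features were called in either direction. Their mean level ran from 5.47 to 6.78 in old activated, 6.56 to 9.61 in old quiescent, 5.73 to 6.1 in young activated and 5.78 to 6.2 in young quiescent FAPs. The highest old quiescent array was array 6, on which Ckm was not detected.

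Schwann and nerve markers (4 tested) were lower on activation, 3 in old and 4 in young mice, among them Mbp and Pmp22, proteins of myelin. They averaged 5.39 to 6.13 in old activated, 6.0 to 7.72 in old quiescent, 5.21 to 5.89 in young activated and 6.96 to 8.12 in young quiescent FAPs. Of 4 tenocyte markers 3 (Comp, Fmod and Chad) were lower on activation at both ages. They averaged 5.57 to 6.0 in old activated, 6.24 to 7.5 in old quiescent, 5.34 to 5.78 in young activated and 6.72 to 7.14 in young quiescent FAPs. Of 5 adipocyte markers 1, Lpl, was lower in old and 2, Plin4 and Lpl, in young activated FAPs. These ran from 7.23 to 7.85 in old activated, 7.24 to 8.96 in old quiescent, 6.7 to 7.17 in young activated and 7.64 to 8.1 in young quiescent FAPs. Calls are by limma at an adjusted p under 0.05 over all features. Of all features 13.8% were lower in old and 16.6% in young activated FAPs. The 1 adipocyte marker of 5 lower in old mice was near that share. Old quiescent array 2 was the highest of its group for the slow fibre genes. The same array was highest for the Schwann, tenocyte, adipocyte, endothelial, macrophage, red blood cell, and smooth muscle and pericyte markers. For the FAP markers it was the lowest, at 9.31. Old activated array 1 was the highest of its group for the macrophage (10.99) and red blood cell markers (9.59). It was the lowest for the FAP (8.32), endothelial (7.68) and tenocyte markers (5.57).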
